A study of Mus musculus with 8 samples.

Results

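The 49 genes described here act in mitosis and at the kinetochore, the protein assembly that joins chromosomes to spindle microtubules. They were taken by name from a fixed list, and each was represented by its brightest probe. All 49 were found among the 31693 gene names on the arrays, and all 49 passed the filter on dim probes. The arrays measured cytoplasmic RNA of mouse bone marrow derived macrophages that had been kept for 3 days under CSF-1, the growth factor of the macrophage lineage. On each of 8 dual-colour arrays, RNA of day 3 was set against RNA of day 0 from the same genotype and experiment. The control cells carried ERT2 Cre, a recombinase that acts once tamoxifen is given. The flox cells carried ERT2 Cre and Thoc5 (flox/flox), so that tamoxifen can remove both copies of Thoc5, a subunit of the complex that takes part in mRNA export. Both genotypes were on a C57BL/6 x B6:129 Ola background, and all day 0 cells were untreated. The 4 groups were control cells without and with tamoxifen and flox cells without and with tamoxifen at day 3, with 2 arrays each.

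The pair of arrays in a group came from 2 biological experiments, and experiment 2 had the opposite dyes and its own slide, so that experiment, dye direction and slide are 1 split. Each day 0 RNA served on 2 arrays, those without and with tamoxifen. How many animals gave the cells, which promoter drives the Cre, and the dose and time of tamoxifen are not given in the sources used here. The share of probes well above background ran from 51.2% to 57.9%, and 0 spots were saturated. The targeted gene Thoc5 had log2 ratios of -3.04 and -3.02 in flox cells with tamoxifen, of -0.74 and -0.77 in flox cells without tamoxifen, and of -0.40 to -0.15 on the 4 arrays of control cells. The untreated flox cells thus lie below all control arrays, a difference of -0.42 without tamoxifen that did not pass the test (adjusted p = 0.0729). All 12 macrophage markers examined (Csf1r, Adgre1, Cd68 and others) were well above background on every array in both channels. So were all 12 neutrophil markers examined, so detection alone does not tell how pure the cells were. The arrays hold bulk RNA, so fewer cells in mitosis and less mitotic RNA per cell cannot be told apart, and RNA left in the nucleus was not measured.

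Genes of mitosis are transcribed late in the cell cycle, and their products are removed again as cells divide. Cyclins A and B with Cdk1, Plk1 and the Aurora kinases bring the cell into mitosis. The chromosomal passenger complex and the kinetochore attach and correct chromosomes on the spindle, the spindle checkpoint holds the cell until all are attached, and Cdc20 and Ube2c then help the anaphase promoting complex to destroy securin (Pttg1) and cyclin B. Many of these genes share promoter elements: the cell cycle genes homology region, or CHR, which the MuvB complex binds together with B-Myb (Mybl2) and Foxm1, and CCAAT boxes bound by NF-Y. In bone marrow cultures, macrophage precursors divide under CSF-1 and leave the cycle as they mature.

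Promoter windows of 300 bases, from 250 bases before to 50 bases after the start of the gene, were given by RefSeq (GRCm38.p6) for 40 of the 49 genes, 43 windows in all. They were searched for TTTGAA and TTCGAA, the letters of the CHR, and for CCAAT, on both strands. The CHR letters stood in 74.4% of these windows (32 of 43) and in 19.2% of all 32851 windows of the table. With their first base within 50 bases of the start, they stood in 65.1% of the members' windows and 5.31% of all. CCAAT letters stood in 76.7% of the members' windows and 37.4% of all. To show how these promoters are built, the 150 bases before the start are printed for the 5 brightest members that have the CHR letters there. Capitals mark the CHR letters, which read TTCAAA where the element lies on the other strand.
Mki67: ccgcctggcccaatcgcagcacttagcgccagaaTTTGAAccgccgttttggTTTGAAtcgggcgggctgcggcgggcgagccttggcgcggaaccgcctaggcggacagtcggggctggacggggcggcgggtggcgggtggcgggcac
Bub3: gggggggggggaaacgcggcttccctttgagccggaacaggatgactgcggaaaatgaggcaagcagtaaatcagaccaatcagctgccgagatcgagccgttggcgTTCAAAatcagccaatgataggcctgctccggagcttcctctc
Ube2c: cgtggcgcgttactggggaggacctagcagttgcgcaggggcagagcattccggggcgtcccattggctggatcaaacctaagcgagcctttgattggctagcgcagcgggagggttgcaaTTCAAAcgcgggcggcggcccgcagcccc
Cdc20: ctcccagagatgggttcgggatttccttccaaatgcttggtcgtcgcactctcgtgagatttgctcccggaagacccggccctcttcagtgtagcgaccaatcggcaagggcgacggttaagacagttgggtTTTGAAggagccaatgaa
Prc1: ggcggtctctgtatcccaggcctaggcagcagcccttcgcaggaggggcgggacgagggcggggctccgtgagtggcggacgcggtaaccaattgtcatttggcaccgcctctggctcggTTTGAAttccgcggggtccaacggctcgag
Each is written 5′ to 3′ on the strand of the gene. The stretches are chr7:135716380-135716529 on the minus strand, chr7:131560220-131560369 on the plus strand, chr2:164769779-164769928 on the plus strand, chr4:118437344-118437493 on the minus strand and chr7:80294326-80294475 on the plus strand. The first base of the element lies 116 and 98 bases before the start in Mki67, 43 in Bub3, 29 in Ube2c, 18 in Cdc20 and 30 in Prc1. Prc1 and Bub3 have 2 windows each, of which 1 is shown. A match of letters is not a measured site.

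**Figure D1:**
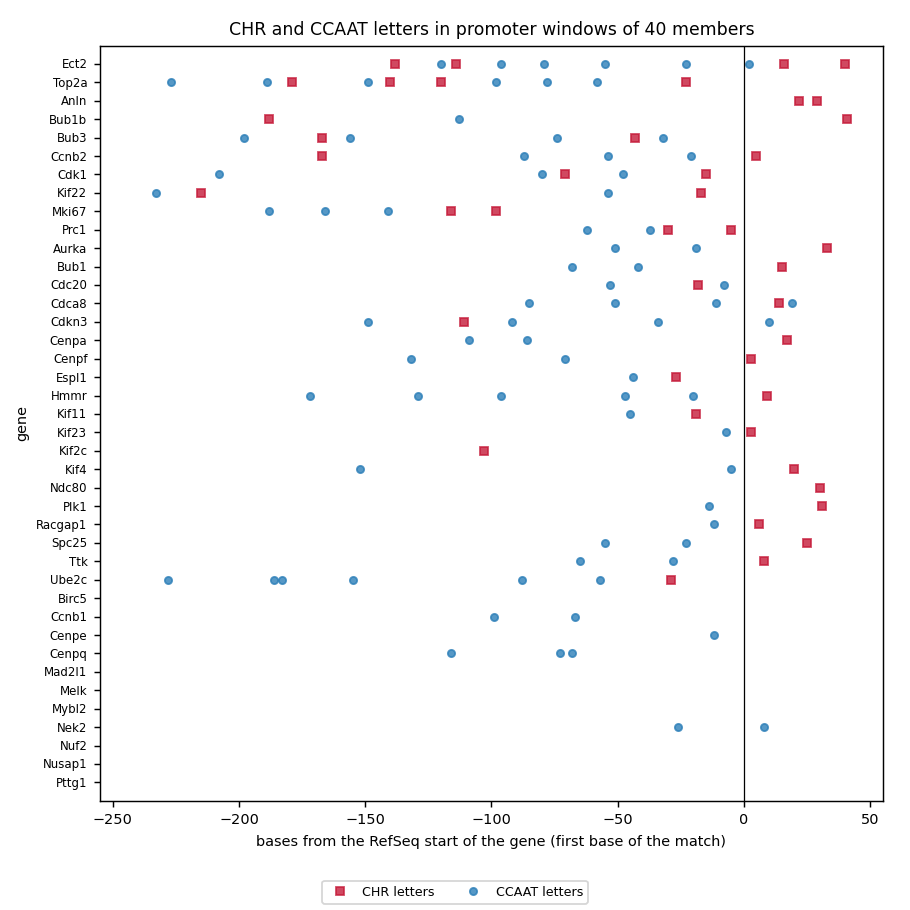
Position of CHR letters (red squares) and CCAAT letters (blue circles) in the promoter windows of 40 genes, as the distance in bases of the first letter from the RefSeq start; genes with 2 windows show the matches of both. The CHR letters lie in windows of 29 genes, and in 26 of these at least 1 match begins within 50 bases of the start.

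Transcripts of nearly all the mitotic genes fell between day 0 and day 3 in every group, and they fell most in control cells without tamoxifen. In that group 48 of 49 were called lower at an adjusted p under 0.05 and 0 higher. The median log2 ratio was -1.53, a 2.89-fold fall. In control cells with tamoxifen 47 were lower (median -1.08), in flox cells 40 (median -0.82) and in flox cells with tamoxifen 46 (median -1.12), and 0 were higher in any of them. Of all genes tested, 34.1%, 33.8%, 33.4% and 33.4% were called lower in these groups in the same order, and 23.3%, 23.9%, 23.8% and 25.5% higher, and the median of all genes was -0.059 to -0.049. Within experiment 1 the members' medians were -1.57, -1.12, -0.69 and -1.18, and within experiment 2 -1.48, -0.97, -0.99 and -1.12. For 45 of the 49 genes, control cells without tamoxifen had the lowest ratio of the 4 groups in both experiments, a position they held for 12.2% of all genes.

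**Figure D2:**
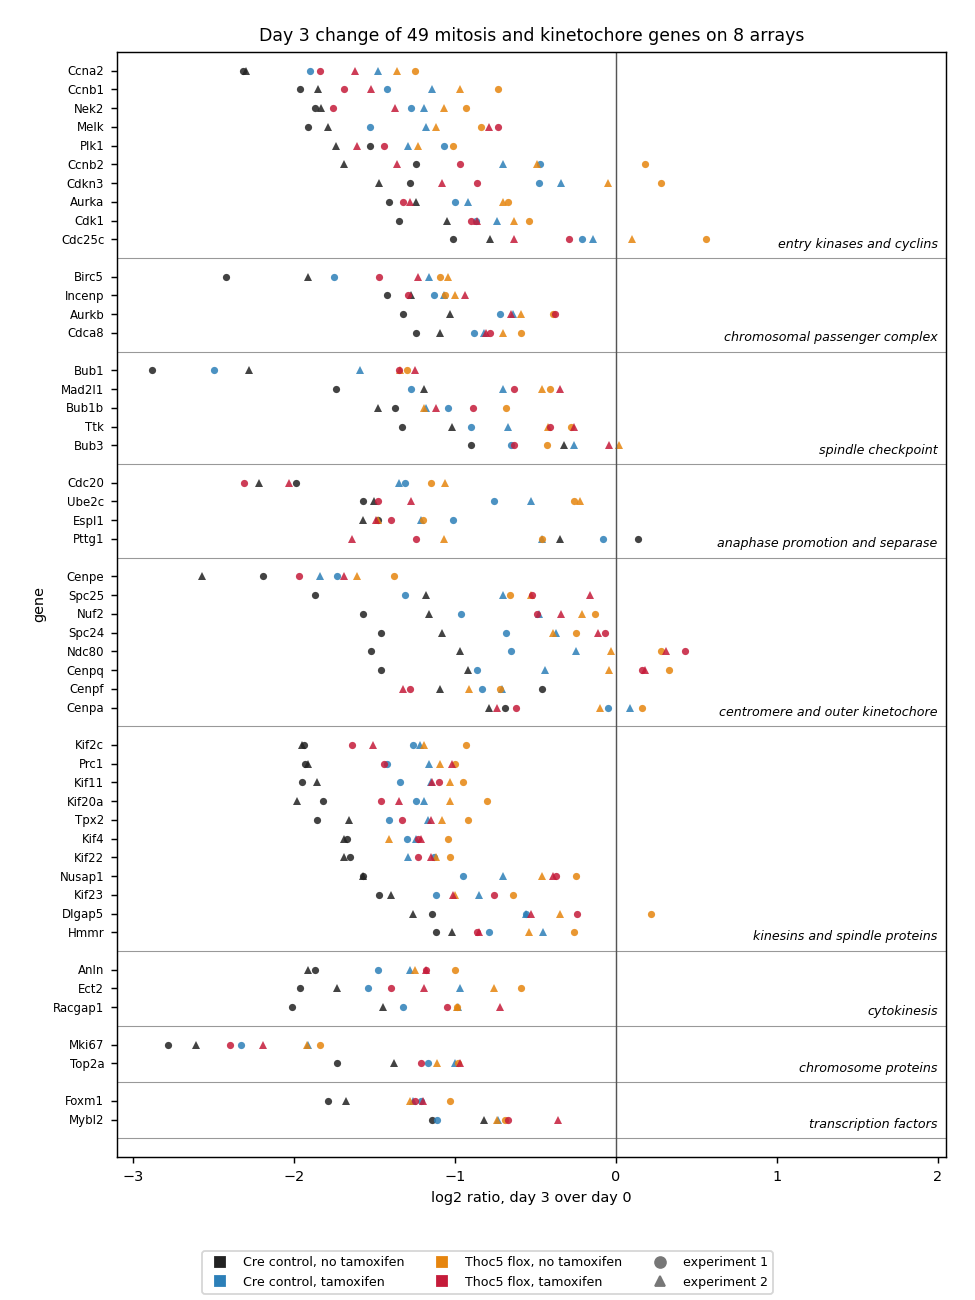
Log2 ratio of day 3 over day 0 (x axis) of each of the 49 genes (y axis, by role) on each of 8 arrays; colours are groups and symbols are experiments. Control cells without tamoxifen (black) lie farthest to the left for most genes, with medians of -1.57 and -1.48, and the arrays of flox cells without tamoxifen (orange) have medians of -0.69 and -0.99.

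Among the 10 kinases, cyclins and phosphatases of mitotic entry, 10 fell in control cells, 9 with tamoxifen, 7 in flox cells and 10 in flox cells with tamoxifen. Ccna2, cyclin A2, which drives S phase and the entry into mitosis, had ratios of -2.32 and -2.30 in control cells, -1.90 and -1.48 in control cells with tamoxifen, -1.25 and -1.36 in flox cells and -1.84 and -1.62 in flox cells with tamoxifen. Its fall of 4.96-fold in control cells is the largest of this group, and the flox cells are the least reduced on both arrays. Ccnb1, a cyclin B that activates Cdk1, had ratios of -1.96 and -1.85 in control cells, -1.42 and -1.14 in control cells with tamoxifen, -0.73 and -0.97 in flox cells and -1.69 and -1.52 in flox cells with tamoxifen. Ccnb2, the other B-type cyclin of the list, had ratios of -1.24 and -1.69 in control cells, -0.47 and -0.70 in control cells with tamoxifen, 0.18 and -0.49 in flox cells and -0.97 and -1.36 in flox cells with tamoxifen. Both cyclins were lower on both control arrays than on any array of flox cells without tamoxifen. Cdkn3, a phosphatase that acts on Cdk proteins, had ratios of -1.28 and -1.47 in control cells, -0.48 and -0.34 in control cells with tamoxifen, 0.28 and -0.05 in flox cells and -0.86 and -1.08 in flox cells with tamoxifen. Cdc25c, the phosphatase that activates cyclin B-Cdk1, had ratios of -1.01 and -0.78 in control cells, -0.21 and -0.14 in control cells with tamoxifen, 0.56 and 0.10 in flox cells and -0.29 and -0.63 in flox cells with tamoxifen. In flox cells without tamoxifen Ccnb2 (-0.15 ± 0.09 SE), Cdkn3 (0.12 ± 0.10) and Cdc25c (0.33 ± 0.13) did not pass the test, nor did Cdc25c in control cells with tamoxifen (-0.18 ± 0.13). Plk1, the kinase of centrosome maturation and mitotic exit, had ratios of -1.53 and -1.74 in control cells, -1.07 and -1.29 in control cells with tamoxifen, -1.01 and -1.23 in flox cells and -1.44 and -1.61 in flox cells with tamoxifen. For Aurka, the kinase of spindle poles, they were -1.41 and -1.24 in control cells, -1.0 and -0.92 in control cells with tamoxifen, -0.67 and -0.70 in flox cells and -1.32 and -1.28 in flox cells with tamoxifen. Plk1 and Aurka fell in all 4 groups, in control cells by 3.11-fold and 2.50-fold. The remaining Cdk1, Nek2 and Melk, kinases too, fell in all 4 groups, with differences of -1.20, -1.85 and -1.85 in control cells.

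The chromosomal passenger complex, which corrects faulty attachments, was lower by the brightest probes: all 4 members fell in all 4 groups. Birc5, or survivin, had ratios of -2.42 and -1.91 in control cells, -1.75 and -1.16 in control cells with tamoxifen, -1.09 and -1.04 in flox cells and -1.47 and -1.23 in flox cells with tamoxifen. Its fall was 4.49-fold in control cells and 2.09-fold in flox cells by this probe. By 2 further Birc5 probes the log2 differences were -0.87 and -1.28 in control cells and -0.10 and -0.39 in flox cells. The size of its fall thus depends on the probe. Cdca8, or borealin, had ratios of -1.24 and -1.09 in control cells, -0.88 and -0.82 in control cells with tamoxifen, -0.59 and -0.70 in flox cells and -0.78 and -0.81 in flox cells with tamoxifen, the smallest fall of the complex in control cells. A second Cdca8 probe gave -0.63 in control cells but 0.07 with tamoxifen, 0.35 in flox cells and 0.06 in flox cells with tamoxifen, so its fall in these 3 groups depends on the probe. The scaffold Incenp and the kinase Aurkb lay at -1.35 and -1.18 in control cells and at -1.03 and -0.49 in flox cells.

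All 5 spindle checkpoint genes fell in control cells, in control cells with tamoxifen and in flox cells with tamoxifen, and 4 of 5 in flox cells. Bub1, a checkpoint kinase at the kinetochore, had ratios of -2.88 and -2.28 in control cells, -2.50 and -1.59 in control cells with tamoxifen, -1.30 and -1.34 in flox cells and -1.35 and -1.25 in flox cells with tamoxifen. This was a 5.97-fold fall in control cells, and the 4 arrays of control cells lie below the 4 arrays of flox cells without overlap. Bub3, its partner in kinetochore binding, had ratios of -0.90 and -0.32 in control cells, -0.65 and -0.26 in control cells with tamoxifen, -0.43 and 0.02 in flox cells and -0.63 and -0.04 in flox cells with tamoxifen, and its change in flox cells (-0.20 ± 0.07, adjusted p = 0.0525) did not pass the test. Mad2l1, which inhibits Cdc20, lay at -1.46 in control cells and -0.44 in flox cells. The kinases Bub1b and Ttk lay at -1.42 and -1.18 in control cells and at -0.94 and -0.35 in flox cells.

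Of the 4 genes of anaphase, 3 fell in control cells and 4 in each other group. Cdc20, the activator of the anaphase promoting complex, had ratios of -1.99 and -2.22 in control cells, -1.31 and -1.35 in control cells with tamoxifen, -1.15 and -1.06 in flox cells and -2.31 and -2.03 in flox cells with tamoxifen. Ube2c, the ubiquitin-conjugating enzyme of that complex, had ratios of -1.57 and -1.50 in control cells, -0.76 and -0.53 in control cells with tamoxifen, -0.26 and -0.22 in flox cells and -1.48 and -1.27 in flox cells with tamoxifen. In both genes the arrays of control cells without tamoxifen and of flox cells with it lie below the other 4 arrays, with no overlap. Pttg1, securin, had ratios of 0.14 and -0.35 in control cells, -0.08 and -0.46 in control cells with tamoxifen, -0.46 and -1.07 in flox cells and -1.24 and -1.64 in flox cells with tamoxifen. It is the gene whose day 3 difference in control cells did not pass the test (-0.10 ± 0.07), and its order of groups differs from that of the others, with flox cells below control cells in each experiment. A second, dimmer Pttg1 probe gave -0.93 in control cells, -1.09 with tamoxifen, -1.21 in flox cells and -2.17 in flox cells with tamoxifen. Whether Pttg1 fell in control cells thus depends on the probe. Espl1, the separase that securin holds inactive, fell in all 4 groups by 2.16-fold to 2.88-fold.

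Of the 8 centromere and outer kinetochore genes, 8 fell in control cells, 7 in control cells with tamoxifen, 4 in flox cells and 5 in flox cells with tamoxifen. Cenpe, the kinetochore kinesin, had ratios of -2.19 and -2.57 in control cells, -1.73 and -1.84 in control cells with tamoxifen, -1.38 and -1.61 in flox cells and -1.97 and -1.69 in flox cells with tamoxifen, a fall in every group. Cenpa, the histone H3 variant of centromeres, had ratios of -0.69 and -0.79 in control cells, -0.05 and 0.09 in control cells with tamoxifen, 0.16 and -0.10 in flox cells and -0.62 and -0.74 in flox cells with tamoxifen. It passed the test in the groups whose arrays all lie below -0.6, and did not in control cells with tamoxifen (0.02 ± 0.09) and flox cells without (0.03 ± 0.09). Ndc80, the microtubule-binding subunit of the kinetochore, had ratios of -1.52 and -0.97 in control cells, -0.65 and -0.25 in control cells with tamoxifen, 0.28 and -0.03 in flox cells and 0.43 and 0.31 in flox cells with tamoxifen. Nuf2, its direct partner, had ratios of -1.57 and -1.16 in control cells, -0.96 and -0.48 in control cells with tamoxifen, -0.13 and -0.21 in flox cells and -0.49 and -0.34 in flox cells with tamoxifen. The other subunits of the same complex are Spc24, with ratios of -1.46 and -1.08 in control cells, -0.68 and -0.37 in control cells with tamoxifen, -0.25 and -0.39 in flox cells and -0.07 and -0.11 in flox cells with tamoxifen, and Spc25, with ratios of -1.87 and -1.18 in control cells, -1.31 and -0.70 in control cells with tamoxifen, -0.66 and -0.53 in flox cells and -0.52 and -0.16 in flox cells with tamoxifen. All 4 subunits fell in control cells by 2.37-fold to 2.88-fold. Ndc80 and Nuf2 did not pass the test in flox cells (0.13 ± 0.15 and -0.17 ± 0.11), and Ndc80 and Spc24 not in flox cells with tamoxifen (0.37 ± 0.15 and -0.09 ± 0.11). Cenpq, of the inner kinetochore, had ratios of -1.46 and -0.92 in control cells, -0.86 and -0.44 in control cells with tamoxifen, 0.33 and -0.04 in flox cells and 0.16 and 0.18 in flox cells with tamoxifen, and did not pass the test in either flox group. For Cenpf, a large protein of the outer kinetochore, the day 3 signal was well above background on 1 of 2 arrays of control cells, 1 of 2 with tamoxifen, both arrays of flox cells and neither with tamoxifen. Its ratios were -0.46 and -1.09 in control cells, -0.83 and -0.71 in control cells with tamoxifen, -0.72 and -0.91 in flox cells and -1.28 and -1.32 in flox cells with tamoxifen. In flox cells with tamoxifen only a bound can be given: Cenpf was at least 2.26-fold lower at day 3. The bound sets the day 0 mean against the higher of its own signal and the lowest signal well above background on each array. It was not tested: the adjusted p of 0.000314 by limma belongs to the measured ratios, whose day 3 signals were dim in this group.

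All 11 kinesins and spindle proteins fell in control cells with and without tamoxifen and in flox cells with it, and 10 of 11 in flox cells. Prc1, which bundles microtubules of the midzone, had ratios of -1.93 and -1.91 in control cells, -1.42 and -1.16 in control cells with tamoxifen, -1.0 and -1.09 in flox cells and -1.44 and -1.02 in flox cells with tamoxifen. Kif2c, which takes microtubules apart at centromeres, had ratios of -1.94 and -1.95 in control cells, -1.26 and -1.22 in control cells with tamoxifen, -0.93 and -1.19 in flox cells and -1.64 and -1.51 in flox cells with tamoxifen. Kif20a, a kinesin of the midzone, had ratios of -1.82 and -1.98 in control cells, -1.24 and -1.19 in control cells with tamoxifen, -0.80 and -1.03 in flox cells and -1.46 and -1.35 in flox cells with tamoxifen. Kif11, the motor that separates spindle poles, had ratios of -1.95 and -1.86 in control cells, -1.34 and -1.15 in control cells with tamoxifen, -0.95 and -1.03 in flox cells and -1.10 and -1.14 in flox cells with tamoxifen. In these 4 genes both control arrays are lowest and do not overlap any array of flox cells without tamoxifen. Nusap1, a spindle microtubule binder, had ratios of -1.57 and -1.57 in control cells, -0.95 and -0.70 in control cells with tamoxifen, -0.25 and -0.46 in flox cells and -0.37 and -0.39 in flox cells with tamoxifen. Dlgap5, a spindle assembly factor, had ratios of -1.14 and -1.26 in control cells, -0.56 and -0.56 in control cells with tamoxifen, 0.22 and -0.35 in flox cells and -0.24 and -0.53 in flox cells with tamoxifen and did not pass the test in flox cells (-0.07 ± 0.11). Hmmr, a spindle and hyaluronan-binding protein, had ratios of -1.12 and -1.02 in control cells, -0.79 and -0.45 in control cells with tamoxifen, -0.26 and -0.54 in flox cells and -0.86 and -0.85 in flox cells with tamoxifen, the smallest fall of the group in control cells (2.09-fold). Kif4, Kif22 and Kif23, motors of chromosomes and the midzone, and Tpx2, the activator of Aurka, fell in all 4 groups, by 2.70-fold to 3.40-fold in control cells.

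The 3 cytokinesis genes, 2 chromosome proteins and 2 transcription factors fell in all 4 groups. Anln, anillin of the cleavage furrow, had ratios of -1.87 and -1.91 in control cells, -1.48 and -1.28 in control cells with tamoxifen, -1.0 and -1.25 in flox cells and -1.18 and -1.18 in flox cells with tamoxifen. Racgap1, part of the complex that positions the furrow, had ratios of -2.01 and -1.45 in control cells, -1.32 and -0.98 in control cells with tamoxifen, -0.99 and -0.99 in flox cells and -1.05 and -0.72 in flox cells with tamoxifen. Ect2, the exchange factor that activates RhoA there, lay at -1.84 in control cells and -0.67 in flox cells. Mki67, the Ki-67 protein that coats mitotic chromosomes and marks dividing cells, had ratios of -2.78 and -2.61 in control cells, -2.33 and -1.91 in control cells with tamoxifen, -1.84 and -1.92 in flox cells and -2.40 and -2.19 in flox cells with tamoxifen. Its fall of 6.47-fold in control cells was the largest of all 49 genes. For Top2a, the topoisomerase that untangles sister chromatids, the ratios were -1.73 and -1.38 in control cells, -1.17 and -1.0 in control cells with tamoxifen, -0.98 and -1.11 in flox cells and -1.21 and -0.97 in flox cells with tamoxifen. Foxm1, a forkhead factor of mitotic genes, had ratios of -1.79 and -1.68 in control cells, -1.21 and -1.26 in control cells with tamoxifen, -1.03 and -1.28 in flox cells and -1.25 and -1.20 in flox cells with tamoxifen. For Mybl2, or B-Myb, they were -1.14 and -0.82 in control cells, -1.11 and -0.73 in control cells with tamoxifen, -0.69 and -0.74 in flox cells and -0.67 and -0.36 in flox cells with tamoxifen. In control cells these are falls of 3.33-fold and 1.97-fold.

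The mitotic genes lay mostly higher with tamoxifen than without it in control cells, and mostly lower in flox cells. In control cells, 48 of 49 genes had a difference above 0 between cells with and without tamoxifen, with a median of 0.53, and 47 were higher in both experiments (29.1% of all genes were). By limma, 0 of 49 passed the adjusted test, as did 0% of all genes, while 43 of 49, and 992 of all 17945 genes, had an unadjusted p under 0.05. Ube2c had the smallest p of the members (0.89 ± 0.10 SE, adjusted p = 0.217). In flox cells 39 of 49 genes had a difference below 0, with a median of -0.18, and 10 were called lower and 0 higher, against 4.15% of all genes called lower and 4.87% higher. The 10 genes are Ube2c (-1.14 ± 0.10), Cdkn3 (-1.08 ± 0.14), Cdc20 (-1.06 ± 0.14), Ccnb2 (-1.01 ± 0.13), Cdc25c (-0.80 ± 0.18), Ccnb1 (-0.75 ± 0.14), Cenpa (-0.71 ± 0.12), Pttg1 (-0.67 ± 0.10), Aurka (-0.62 ± 0.10) and Plk1 (-0.40 ± 0.09). Of these, 6 belong to the entry group, 3 to the anaphase group and 1, Cenpa, to the kinetochore group. In the kinetochore group Ndc80, Spc24, Spc25 and Cenpq had values of 0.24, 0.23, 0.26 and 0.02, and did not pass. The median was -0.36 within experiment 1 and -0.08 within experiment 2.

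The count of 10 changed with single arrays. Without either array of flox cells the count was 1 (experiment 1) or 3 (experiment 2), without either array of flox cells with tamoxifen 2, and without either array of control cells with tamoxifen 6. A fit of the 4 flox arrays alone called 18 members lower.

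The difference of the tamoxifen effects, flox minus control, tests whether the genotypes respond unlike each other. It was below 0 for 48 of 49 genes in the fit and in both experiments, with a median of -0.69 (-0.79 and -0.60 within the experiments), while the median of all genes was -0.014. It was called for 10 genes, all lower, against 0.596% of all genes called lower and 0.546% higher (1.14% in all). These were Cdkn3 (-2.05 ± 0.19, adjusted p = 0.0181), Ube2c (-2.02 ± 0.15, adjusted p = 0.00899), Ccnb2 (-1.89 ± 0.18), Cdc20 (-1.84 ± 0.20), Cenpa (-1.47 ± 0.17), Ccnb1 (-1.37 ± 0.20), Kif2c (-1.23 ± 0.18), Kif20a (-1.19 ± 0.17), Aurka (-0.98 ± 0.14) and Plk1 (-0.86 ± 0.13). For Ube2c this is a 4.06-fold difference in response. Mybl2, with 0.13 ± 0.19, was the gene above 0. Without an array of control cells 6 (experiment 1) or 4 (experiment 2) calls were left, and without flox cells with tamoxifen of experiment 1, 1 call; without any other array 0 were left. Fits with no term for the experiment and from Agilent's log ratios gave 3 calls each, and treating the day 0 RNA that arrays share as a random effect gave 22.

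**Figure D3:**
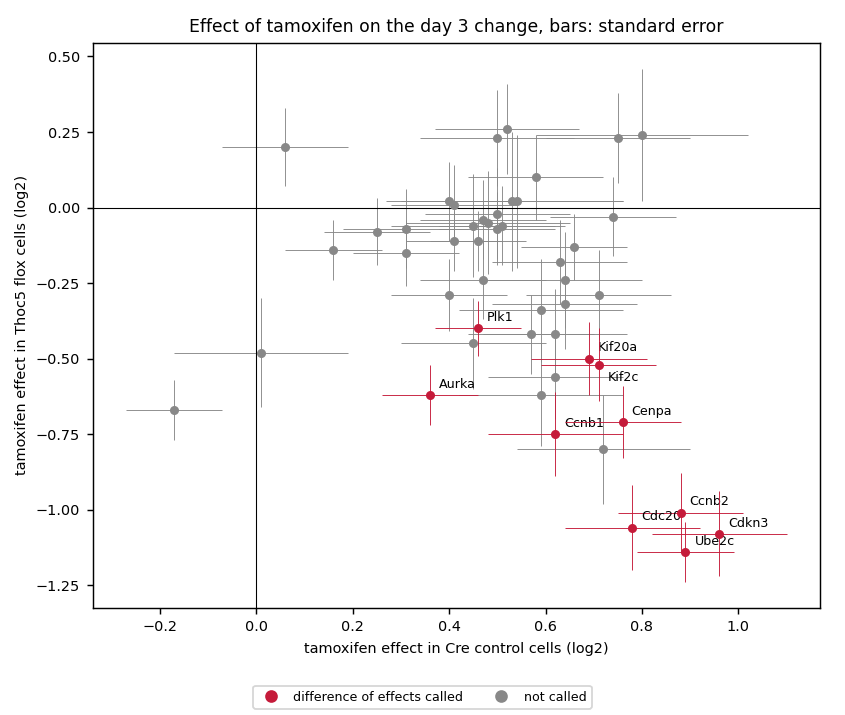
Effect of tamoxifen on the day 3 change of each of the 49 genes in control cells (x axis) and in flox cells (y axis), as log2 differences with standard errors; red marks the 10 genes called for the difference of effects. Most genes lie right of 0 (48 of 49) and below 0 (39 of 49), and Ube2c, Cdkn3, Ccnb2 and Cdc20 lie farthest to the lower right.

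For Ube2c and Cdc20, control cells without tamoxifen and flox cells with it lay below the other groups by day 3 level, as by ratio. This did not hold for the median day 3 level (log2 intensity) of all 49 genes. That median was 11.42 and 11.13 in control cells and 12.03 and 11.86 in control cells with tamoxifen. In flox cells it was 12.45 and 12.23, and in flox cells with tamoxifen 12.12 and 12.24. The day 3 level of Ube2c, as log2 intensity after Aquantile scaling, was 13.58 and 13.36 in control cells, 14.53 and 14.29 with tamoxifen, 14.92 and 14.83 in flox cells and 13.65 and 13.98 in flox cells with tamoxifen. Its day 0 levels were 14.83 to 15.30 on all 8 arrays. Cdc20 at day 3 was at 12.86 and 12.66, 13.54 and 13.58, 13.96 and 13.90, and 12.82 and 12.81 in the same order of groups, with 14.84 to 15.12 at day 0. At day 3 the arrays of control cells without tamoxifen and of flox cells with it lie below the other 4 in both genes. At day 0 Cdc20 was at 14.85 and 14.88 in control cells and 15.10 and 14.96 in flox cells on the arrays without tamoxifen. On the arrays with tamoxifen the same day 0 RNAs gave 14.84 and 14.92 in control cells and 15.12 and 14.84 in flox cells. The genotypes thus overlap at day 0. With the day 3 channel tested alone, tamoxifen in flox cells gave 10 members lower (13.4% of all genes were called in either direction), of which Nek2 and Ect2 were not among the 10 of the ratios, while Plk1 (adjusted p = 0.122) and Pttg1 (adjusted p = 0.0569) were not called. For the difference of effects the day 3 channel gave 17 lower (3.44%).

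**Figure D4:**
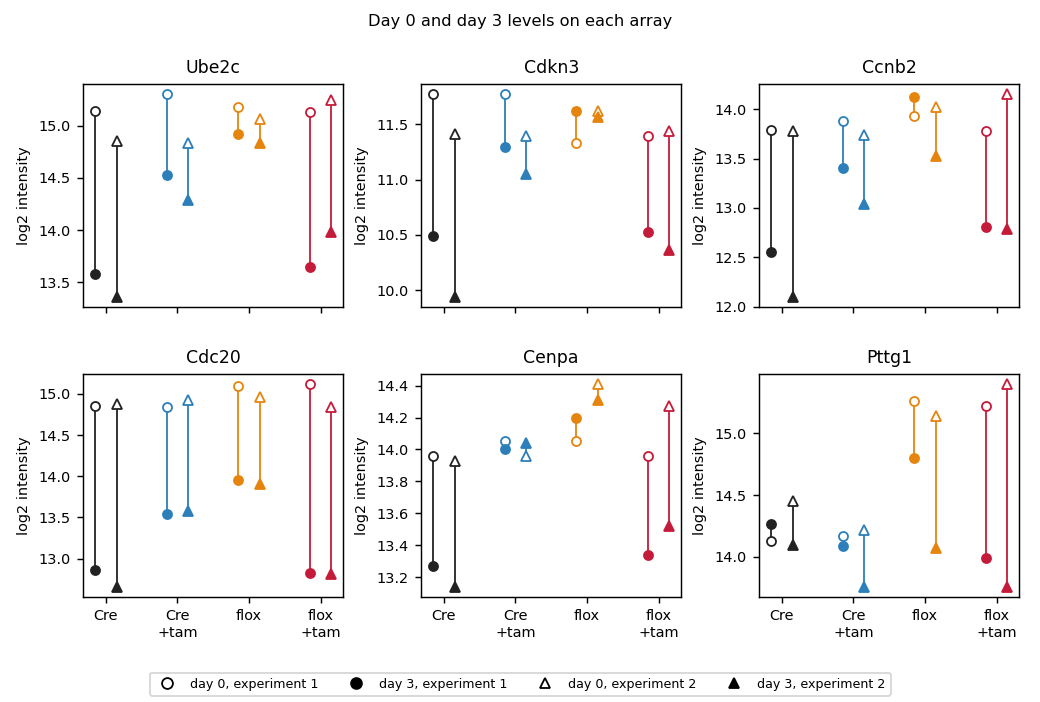
Log2 intensity (y axis) at day 0 (open) and day 3 (filled) on each array for 6 genes, by group (x axis) and experiment (circles 1, triangles 2), with lines joining the 2 RNAs of an array. Ube2c, Cdkn3, Ccnb2, Cdc20 and Cenpa are low at day 3 in control cells without and flox cells with tamoxifen; Pttg1 starts higher at day 0 in all flox arrays.

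Without tamoxifen, the mitotic genes fell less in flox cells than in control cells. Of 49 genes, 33 were called higher in the flox over control difference and 1 lower, against 1.44% and 1.45% of all genes, 2.89% in all. The median was 0.85 (0.94 and 0.69 within experiments 1 and 2), and 47 genes were above 0 in both experiments, as were 31.0% of all genes. The genes with the smallest p were Ube2c (1.29 ± 0.10, adjusted p = 0.0173), Cdkn3 (1.49 ± 0.14), Ccnb2 (1.31 ± 0.13), Nusap1 (1.21 ± 0.13), Kif11 (0.92 ± 0.11) and Kif20a (0.99 ± 0.12). Next came Nuf2 (1.20 ± 0.16), Dlgap5 (1.13 ± 0.15), Ccnb1 (1.05 ± 0.14), Birc5 (1.10 ± 0.15), Cdc20 (1.00 ± 0.14) and Kif2c (0.89 ± 0.12). By role, 9 of 10 entry genes, 7 of 8 kinetochore genes, 8 of 11 kinesins and spindle proteins, 3 of 5 checkpoint genes, 2 of 3 cytokinesis genes and 2 of 4 anaphase genes were higher. The passenger complex had 1 of 4 (Birc5), the chromosome proteins 1 of 2 (Mki67) and the transcription factors 0 of 2. Pttg1 was the gene called lower (-0.66 ± 0.10). In the day 3 channel alone its difference was 0.25 and was not called (adjusted p = 0.322).

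Most of these calls were lost with 1 array less. Leaving out any 1 of the 8 arrays left 0 to 4 of the 34 calls: 4 without control cells of experiment 1, 2 without either array of flox cells with tamoxifen, and 0 without each of the other 5. A fit of the 4 arrays alone, Agilent's processed log ratios and a fit with no term for the experiment each gave 0 calls. Over all these settings the median stayed between 0.66 and 0.99. In the day 3 channel alone 46 of 49 were called higher (10% of all genes in either direction), with a median of 0.91. Since this comparison, the tamoxifen effect in control cells and the difference of effects all use the 2 arrays of control cells without tamoxifen, they do not support one another. The ratios of those 2 arrays were also the least alike (r = 0.78 over genes, against 0.88, 0.93 and 0.92 in the other groups).

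With tamoxifen in both genotypes, the genes divided. The median difference was 0.02 (0.02 and 0.01 within the experiments). In the ratios 6 were called lower in flox cells and 1 higher, against 5.82% and 5.43% of all genes. In the day 3 channel alone the balance was reversed, with 9 higher and 4 lower (17.5% of all genes in either direction) and a median of 0.11. There Pttg1 was at -0.05 (adjusted p = 0.854) and Ccnb2 at -0.42 (adjusted p = 0.102). By the ratios, lower were Pttg1 (-1.16 ± 0.10), Cdc20 (-0.84 ± 0.14), Ube2c (-0.73 ± 0.10), Cenpa (-0.70 ± 0.12), Ccnb2 (-0.58 ± 0.13) and Cdkn3 (-0.56 ± 0.14). Higher was Spc25 (0.67 ± 0.15), and its fellow kinetochore genes Ndc80 (0.81 ± 0.22, adjusted p = 0.0611) and Cenpq (0.82 ± 0.22, adjusted p = 0.0627) did not pass. Together these 7 of 49 stand beside 11.3% of all genes called, so the count is no result about the list. Without either array of control cells with tamoxifen 0 calls were left, and without either array of flox cells with tamoxifen 1.

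**Figure D5:**
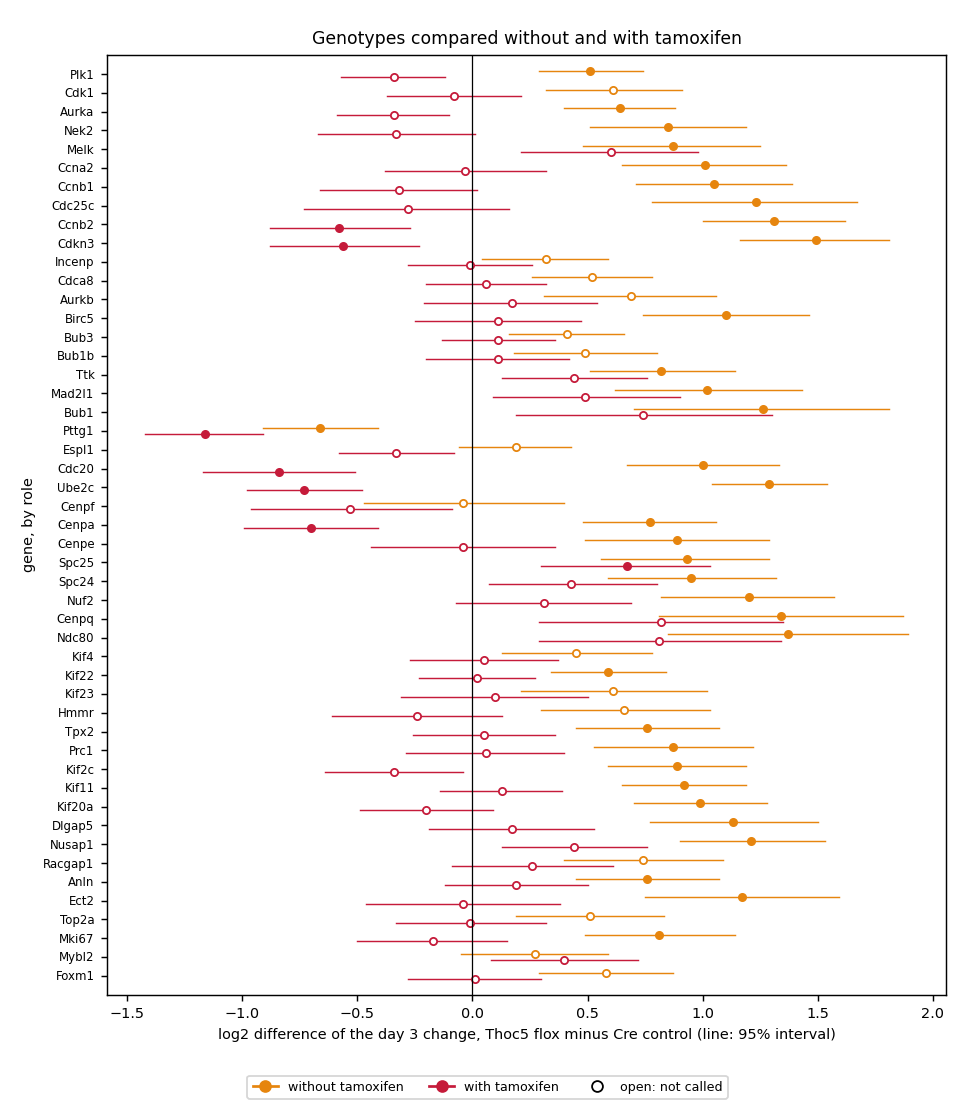
Difference of the day 3 change between genotypes (x axis, log2, flox minus control; lines are 95% intervals) for each gene (y axis, by role), without (orange) and with tamoxifen (red); filled points were called. Without tamoxifen 33 genes were called on the right of 0 and Pttg1 on the left; with tamoxifen the points lie on both sides, 6 called lower and 1 higher.

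At day 0 the genotypes differed in 1 of the 49 genes. Pttg1 was higher in flox cells, at 15.24 and 15.27 against 14.15 and 14.33 in control cells, a difference of 1.01 ± 0.13 (2.02-fold, adjusted p = 0.0499), while 0.351% of all genes were called higher and 0.128% lower. The values of the genotypes do not overlap. The second probe of the gene gave 9.82 and 9.97 in flox cells and 8.90 and 9.35 in control cells. The call rests on 1 residual degree of freedom among 4 RNAs and was lost under 5 of 7 alternatives. The other 48 genes had differences from -0.14 to 0.35 and a median over all 49 of 0.09. The lower day 3 ratio of Pttg1 in flox cells is thus measured against a higher start: its day 3 levels, 13.76 to 14.80 in flox cells and 13.76 to 14.27 in control cells, overlap.

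Other genes of the cycle, from lists chosen alongside the members, gave the following counts. Beside the day 3 counts stand 34.1% of all genes called lower and 23.3% higher in control cells, and 33.4% called lower in flox cells. Of 31 further centromere and kinetochore genes 28 fell in control cells (median -1.14), among them Ska1 (-2.06) and Dsn1 (-1.78), and 20 in flox cells (median -0.43). In flox against control cells without tamoxifen 11 of the 31 were higher, against 1.44% of all genes, and with tamoxifen 7 were, against 5.43%, among them Dsn1 (1.00) and Oip5 (1.03). Of 26 further spindle and centrosome genes 26 fell in control cells and 22 in flox cells, with Kif15 at -2.40 and -1.80. Tamoxifen lowered 4 of the 26 in flox cells, against 4.15% of all genes: Troap (-0.68), Cep55 (-0.62), Kif18b (-0.56) and Ckap2 (-0.49). Of 16 further regulators of entry and exit, 14 fell in control cells (Gtse1 by 1.83), and the difference of effects was called for Gtse1 (-0.95). Among 21 condensin and cohesin genes 17 fell in control cells and 17 in flox cells, with Smc2 at -2.15 and -1.21. Of 17 subunits and regulators of the anaphase promoting complex, 10 fell and 2 rose in control cells, with a median of -0.34.

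The genes of S phase, upstream in the cycle, had another order of groups. Of 35, 29 fell in control cells (median -1.28), 25 in flox cells (median -0.75) and 23 in flox cells with tamoxifen (median -0.50). Of all genes, 34.1%, 33.4% and 33.4% were called lower in these groups. Tamoxifen raised 4 of the 35 and lowered 0 in flox cells, against 4.87% and 4.15% of all genes, among them Rrm2 (0.91), a subunit of ribonucleotide reductase, and Lig1 (0.64), a DNA ligase. The median difference of effects was -0.07 for the S phase genes and -0.69 for the 49 mitotic genes; this contrast between lists was not tested. With tamoxifen, 15 of 35 were higher in flox than in control cells, against 5.43% of all genes, with a median of 0.57. In the DREAM and E2F list 15 of 18 fell in control cells, with E2f8 at -2.18 and E2f7 at -1.96, and 5 of 8 cyclins and kinases of the first gap phase fell. Of 7 CDK inhibitors 5 fell and 1 rose in control cells. Beside the counts of these 3 lists, 34.1% of all genes were called lower and 23.3% higher in control cells. Cdkn1c, or p57, was raised by tamoxifen in flox cells (1.49) and higher there than in control cells with tamoxifen (1.66).

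The day 3 change was also set out by promoter letters, as a description. In control cells the median was -1.53 for the 29 with the letters and -1.57 for the 11 without, and for tamoxifen in flox cells -0.15 and -0.24, with 7 of 29 and 2 of 11 called lower. Ccnb1 and Pttg1 have no CHR letters in their windows and were among the 10 lowered by tamoxifen in flox cells.

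The array holds 20 further probes for 16 of the 49 genes with values to set beside the first. They had the same sign as the brightest probe in 20 of 20 for the day 3 change in control cells, the tamoxifen effect in control cells, the difference of effects and the genotype difference without tamoxifen. For the day 3 change in flox cells without tamoxifen 16 of 20 had the same sign, and for the genotype difference with tamoxifen 14 of 20. In each of the other 3 comparisons 18 of 20 did. Besides Cdca8, the 3 probes of Ccnb1 disagreed. In control cells all lay below 0, with -1.90, -0.89 and -0.49. In control cells with tamoxifen they gave -1.28, -0.02 and 0.53. They gave -0.85, 0.50 and 1.14 in flox cells, and -1.60, -0.16 and 0.41 in flox cells with tamoxifen. The size of its day 3 fall in control cells thus depends on the probe, and in the other groups the direction does too. A dimmer Cdk1 probe gave 0.03 in flox cells, against -0.59 by the brightest. The genotype differences of the Ccnb1 probes without tamoxifen were 1.05, 1.39 and 1.63. The size of the day 3 change also differed between the probes of Birc5 and of Pttg1, as given above. For Ube2c the second probe gave a difference of effects of -2.05 against -2.02.

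Some summed intensities of markers of other cells differed between the groups. The summed intensity of 12 neutrophil genes was 772000 to 888000 at day 0 in flox cells and 503000 to 604000 in control cells, and 51200 to 85900 at day 3 on all arrays. That of 10 stem and progenitor genes, of which 6 to 8 were well above background, was 67300 and 72000 at day 3 in flox cells with tamoxifen and 34600 to 45800 in the other groups. The single genes did not share this direction: for tamoxifen in flox cells 6 of 9 tested lay below 0 (median -0.10), with Cd93 called higher (1.19) and Cd34 lower (-0.70). Of those genes Kit was not well above background at day 3 on any array. The 10 stromal genes summed to 12100 to 15400 at day 3 in control cells, 20600 to 28100 in flox cells and 25900 and 68300 in flox cells with tamoxifen, where experiment 2 had the higher value. Of the single stromal genes, 1 of 10 was called higher for tamoxifen in flox cells and 0 lower, with 2 below 0 (median 0.58). Of 11 erythroid genes, 4 or 5 were well above background, and Klf1 and Alas2 were so on 0 arrays. The 10 B lineage genes, of which 2 to 6 were well above background, summed to 4320 and 5280 at day 3 in flox cells with tamoxifen, 8910 and 9720 in flox cells, and 11700 to 17200 in control cells. Single B lineage genes moved less: for tamoxifen in flox cells 1 of 6 tested was called lower and 0 higher (median -0.16). In control cells without tamoxifen this sum rose from 4640 and 7760 at day 0 to 14400 and 17200 at day 3. Yet 5 of the 6 genes had day 3 changes below 0 there (median -0.35), so the sum does not describe the single genes. The sum of the 12 macrophage genes was 1480000 to 1550000 at day 3 in all groups. The part of these cells in the differences between groups was not tested.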

How the data were processed

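The samples were 8 dual-colour Agilent arrays, 2 for each of 4 groups. The deposited intensity values are mean and background signals of each spot, made with Agilent Feature Extraction 10.7.3.1, per the submitters' processing notes and the file headers. The deposited log10 ratios, which that program computed from its processed signals per the file headers, served as an alternative. The deposited value table holds the same log10 ratios, turned to day 3 over day 0, within 5e-10. Genotype, day and dye came from the labels.

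Background was corrected with normexp (offset 50) and dyes by loess in limma 3.58.1 (R 4.3.3), control spots were left out, and ratios were turned to day 3 over day 0. Dim probes were removed, leaving 22407 probes and 17949 genes, each by its brightest probe. One limma model over 8 arrays estimated a mean for each of 4 groups, with the experiment as covariate, with Benjamini-Hochberg adjustment over all genes. Its residual degrees of freedom were 3. Day 0 levels were tested over 4 RNAs after Aquantile scaling, the 2 arrays of an RNA averaged first. Fits were tested on simulated data. The number of arrays limits the precision.

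Arrays of the same experiment number deviated together, and the number marks a biological experiment per the labels. The correlation over genes was 0.73 and 0.63 between arrays that share a day 0 RNA, and 0.31 to 0.39 between arrays of unlike genotype. The model held no term for the shared day 0 RNA. Its p-values, those between genotypes among them, thus leave this pairing out. With that RNA as a random block, the correlation within blocks was 0.325. Whether the experiments came from separate animals is not given in the sources used here. The p-values measure the spread left between arrays after the group means and the experiment term, not the shared difference between the experiments. The members, lists and tests were chosen with earlier results of these data known. Values per array are given for the brightest, the most and the least lowered gene of each role, for genes called in a tamoxifen or genotype comparison (up to 12), and for genes not called or dim in a group.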

Additional observations from a re-analysis of the deposited data

Results flagged for a closer look

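The following values stood out because the genotypes differed in a test of the difference itself, and they share arrays, so they are not independent. The effect of tamoxifen differed between flox and control cells for 10 genes, against 1.14% of all genes, on the log2 scale: Ccnb1 (-1.37), Ccnb2 (-1.89), Cdkn3 (-2.05), Plk1 (-0.86), Aurka (-0.98), Cdc20 (-1.84), Ube2c (-2.02), Cenpa (-1.47), Kif20a (-1.19) and Kif2c (-1.23).

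The day 3 change differed between the genotypes without tamoxifen for 34 genes, against 2.89% of all genes. Among the entry kinases and cyclins it did so for Ccna2 (1.01), Ccnb1 (1.05), Ccnb2 (1.31), Cdc25c (1.23), Cdkn3 (1.49), Plk1 (0.51), Aurka (0.64), Nek2 (0.85) and Melk (0.87). In the passenger complex the gene was Birc5 (1.10). In the spindle checkpoint the values were Bub1 (1.26), Mad2l1 (1.02) and Ttk (0.82). In the anaphase genes the values were Cdc20 (1.00), Ube2c (1.29) and Pttg1 (-0.66), the last with 0.25 in the day 3 channel alone. In the kinetochore the values were Cenpa (0.77), Cenpe (0.89), Cenpq (1.34), Ndc80 (1.37), Nuf2 (1.20), Spc24 (0.95) and Spc25 (0.93). Among the kinesins and spindle proteins it did so for Kif11 (0.92), Kif20a (0.99), Kif2c (0.89), Kif22 (0.59), Nusap1 (1.21), Tpx2 (0.76), Prc1 (0.87) and Dlgap5 (1.13). In the cytokinesis genes the values were Anln (0.76) and Ect2 (1.17). Of the chromosome proteins it was Mki67 (0.81).

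With tamoxifen in both genotypes the change differed for 7 genes, a count near the background (11.3% of all genes were called), so that it is no result about the list: Ccnb2 (-0.58), Cdkn3 (-0.56), Cdc20 (-0.84), Ube2c (-0.73), Pttg1 (-1.16), Cenpa (-0.70) and Spc25 (0.67). In the day 3 channel alone this difference of Pttg1 was -0.05. In groups of 2 arrays no single array was examined as an outlier.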

How the results depend on the processing

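The counts of members changed by day 3 stayed within 1.5 times in every setting: 47 to 49 in control cells, 36 to 47 with tamoxifen, 31 to 41 in flox cells and 37 to 47 with tamoxifen. Calls between groups were less stable, while the medians kept their range: 0.44 to 0.66 for tamoxifen in control cells, -0.34 to -0.06 in flox cells, -0.87 to -0.55 for the difference of effects and 0.66 to 0.99 between genotypes without tamoxifen. Median centring gave 3 calls for tamoxifen in control cells, where the reported count was 0. For tamoxifen in flox cells the 10 calls became 5 with no replicate block (no term for the experiment), 18 from the compared arrays alone, and 1 to 12 with 1 array left out. For the difference of effects the 10 calls became 3 with no replicate block, 3 from Agilent's log ratios, 22 with a random block for RNA that arrays share, 17 in the day 3 channel and 0 to 6 with 1 array left out. Without tamoxifen the 34 calls became 0 with no replicate block, 0 from Agilent's log ratios, 0 from the compared arrays alone and 0 to 4 with 1 array left out. With tamoxifen the 7 calls became 3 with no replicate block, 4 from Agilent's log ratios, 13 in the day 3 channel and 0 to 10 with 1 array left out. At day 0 the 1 call became 0 with no replicate block, from Agilent's processed signals, with no filter, with the mean of all probes, and from the arrays with untreated day 3 RNA. Ccnb1 in flox cells reversed to 0.27 with the mean of its probes (adjusted p = 0.115). The cause of these changes was not tested. Among values of single genes, 859 kept direction and side of the threshold, 329 lost the call, 2 gained it and 1 reversed. Over all genes, the calls without tamoxifen went from 519 to 2 with no replicate block and 1796 in the day 3 channel, and those for the difference of effects from 205 to 22 and 617. An array left alone in its group was assumed to vary like the others. The day 3 comparisons could not be fitted from their own arrays alone, which leave 0 residual degrees of freedom.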

Other observations

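Pttg1, the member that differed between the genotypes at day 0, has its probe at chr11:43233801-43233860 (mm9), and the probe of Thoc5 lies on the same chromosome, at chr11:4828807-4828866. Of 85 genes with a position that were called between the genotypes at day 0, 25 (29.4%) had their probe on chromosome 11, against 7.98% of the 17840 genes tested with a position. These genes were looked at after the values had been seen, and no test was made.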
